A study of Mus musculus with 2 samples.

Results

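The 42 genes described here encode the proteoglycans, elastic fibres and basement membranes of muscle matrix, together with the enzymes that crosslink it. They were taken by gene symbol from the 32285 genes of the deposited tables, without any collagen genes, and all 42 symbols were present. By the known roles of their products they were divided into 9 small proteoglycans, 17 elastic-fibre genes, 4 crosslinking enzymes, 8 basement-membrane genes and 4 other matrix genes.

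The 9 h library held mononuclear cells from the quadriceps of wild-type C57 BL/6J mice, taken 9 h after an injection of 100 µl of 1.2% BaCl2 (weight by volume) into that muscle. The 2 h library held the same kind of cells from the same strain, taken 2 h after the same injection. Barium chloride kills muscle fibres and leaves connective tissue and stem cells largely in place. Both libraries come from injured muscle, so the 2 h library is an earlier time after injury and not a resting muscle. The cells were frozen and thawed before droplet-based single-cell RNA sequencing, in which each RNA molecule is counted once through a unique molecular identifier (UMI) read near the end of the transcript. Multinucleate muscle fibres are not recovered in such a suspension. The sex and age of the mice and the number pooled are not given in the sources used here. There was 1 library per time, so no difference below has a replicate check and none was tested. The 95% intervals cover counting error only, leave out the spread between cells and between mice, and do not treat cells as replicates.

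Small leucine-rich proteoglycans such as decorin and lumican coat collagen fibrils and set how they assemble. Elastic fibres have a core of elastin laid on fibrillin microfibrils, to which fibulins, microfibril-associated proteins, EMILINs and the latent TGF-beta binding proteins attach, and lysyl oxidases crosslink both elastin and collagen. Basement membranes are sheets of laminin, nidogen, perlecan and agrin around muscle fibres, capillaries and nerves. In muscle much of this matrix is made by fibro-adipogenic progenitors (FAPs), the Pdgfra-expressing fibroblasts between the fibres, and in tendon and myotendinous tissue by tenocytes.

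After filtering, 8147 of 8790 barcodes of the 9 h library and 4900 of 5729 barcodes of the 2 h library remained, with a median of 2327 and 4519 UMIs per cell. The kept cells were clustered without using any of the 42 genes and named from marker lists that hold none of them. FAP-like cells numbered 2373 at 9 h and 2012 at 2 h, and their depth was similar, with a median of 8229 UMIs at 9 h and 7950.5 UMIs at 2 h. Tenocyte-like cells numbered 61 and 85, endothelial-like cells 534 and 263, and neutrophil-like cells 4308 and 1631, at 9 h and 2 h in that order. The FAP-like clusters were almost library-specific, since the 3 clusters that held most 9 h cells had 5, 4 and 4 cells from 2 h. The marker check of the FAP-like name was mixed. Pdgfra was at 384 CPM (UMIs of the gene per 1000000 UMIs of the class) at 9 h and 444 CPM at 2 h, whereas the whole FAP marker list summed to 17492 CPM at 9 h and 49331 CPM at 2 h, and 14 of its 15 measured genes were themselves at least 2-fold lower at 9 h. The summed tenocyte, endothelial, neutrophil and T or NK markers in these cells were 105, 165, 2153 and 1.23 CPM at 9 h, and 65.0, 182, 1576 and 1.30 CPM at 2 h. Their part in the results was not tested.

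More than 50% of a gene's UMIs lay in FAP-like cells for 37 of the 42 genes at 9 h and for 36 at 2 h. The levels per cell class gave a different order, because the few tenocyte-like cells carried several of the genes at high level. Among classes of at least 50 cells, the highest CPM was found in FAP-like cells for 20 genes at 9 h and 16 at 2 h, and in tenocyte-like cells for 17 genes at 9 h and 22 at 2 h. Endothelial-like cells held the highest level of Fbln5 and Agrn at both times and of Eln at 9 h.

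**Figure D1:**
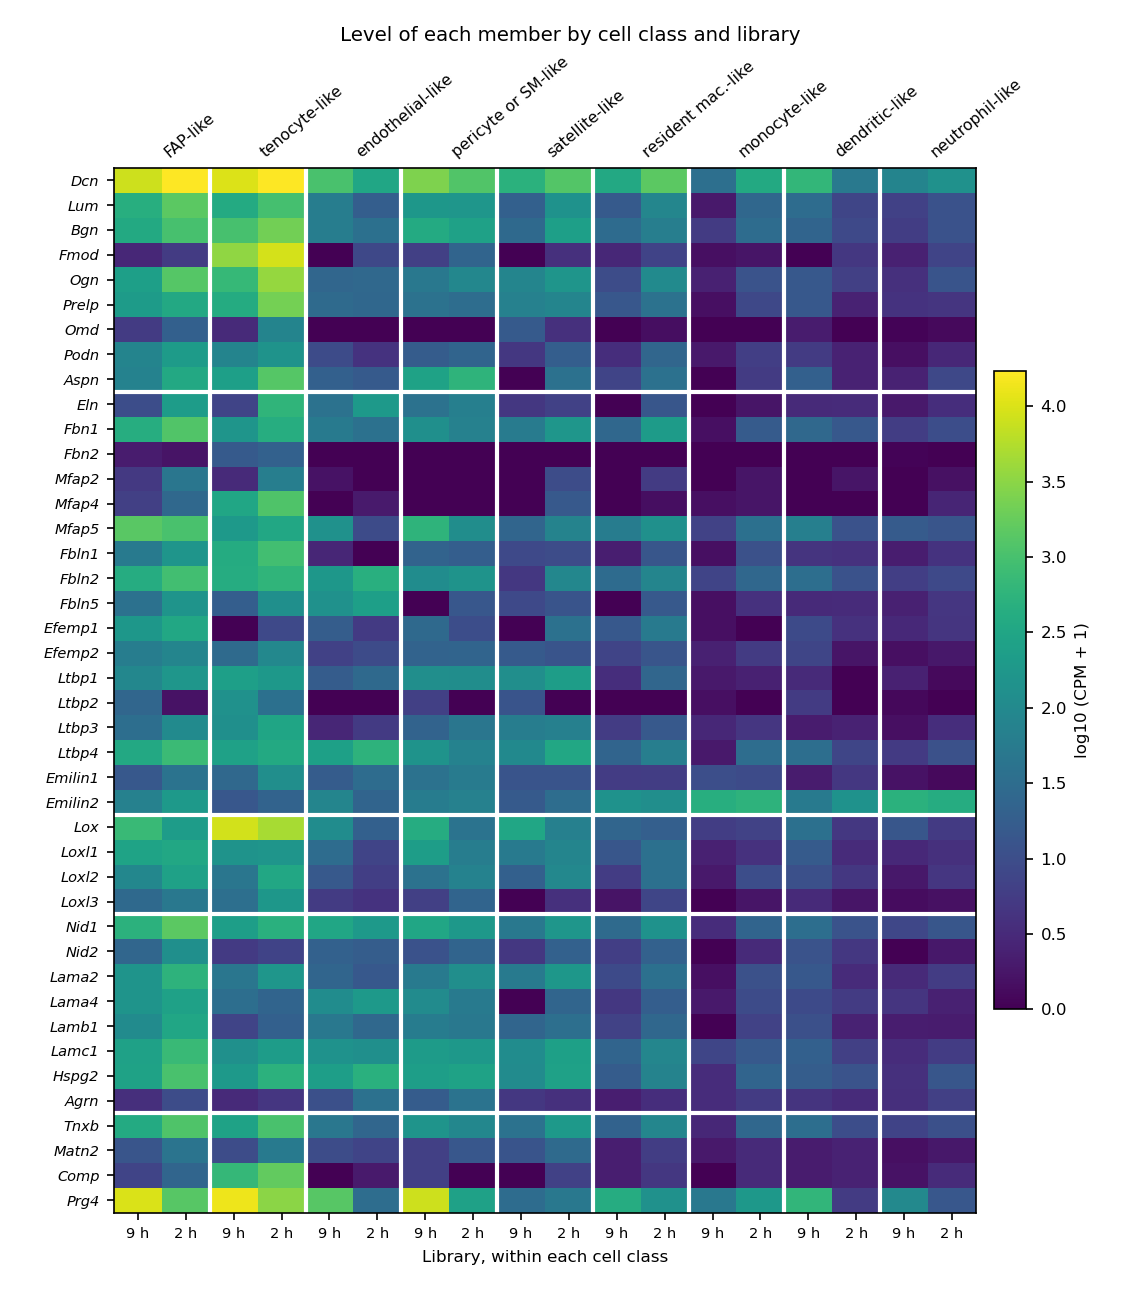
Level of the 42 genes (rows, by group) in the cell classes (columns), with the 9 h library left of the 2 h library in each class; colour is log10 of CPM plus 1. Glial-like, T- or NK-like and B-like cells are left out, and FAP-like and tenocyte-like cells hold the high levels of most genes, for example Fmod at 3434 CPM and 9005 CPM in tenocyte-like cells at 9 h and 2 h.

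In FAP-like cells most of the matrix genes were lower at 9 h than at 2 h. A gene was called measured when its class held at least 100 of its UMIs over both libraries, and lower or higher when the log2 ratio of CPM plus 10 was -1 or less, or 1 or more. By this rule 27 of the 41 measured genes were lower at 9 h, where 9.31% of all 10471 measured genes were lower. Prg4, Ltbp2 and Lox were the 3 that were higher, where 7.40% of all measured genes were higher. The median log2 ratio of the measured members was -1.23, against 0.00 over all measured genes, and 37 of the 41 lay below 0. By the log2 ratio alone, the rule is near its limit for Dcn, Omd, Fbln2, Ltbp4 and Emilin1, which passed it here and not under every other setting tried. The 10 leading genes held no FAP marker in the largest FAP-like cluster of either time or in the 9 h cluster led by Saa1 and Saa2, although all 15 FAP markers were detected in each FAP-like cluster. Leaving out the Saa1-led cluster gave 28 lower and 3 higher genes, an alternative chosen after seeing the data. Together the 42 genes took 2.56% of FAP-like UMIs at 9 h and 3.50% at 2 h, and without Prg4 they took 1.58% at 9 h and 3.37% at 2 h.

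**Figure D2:**
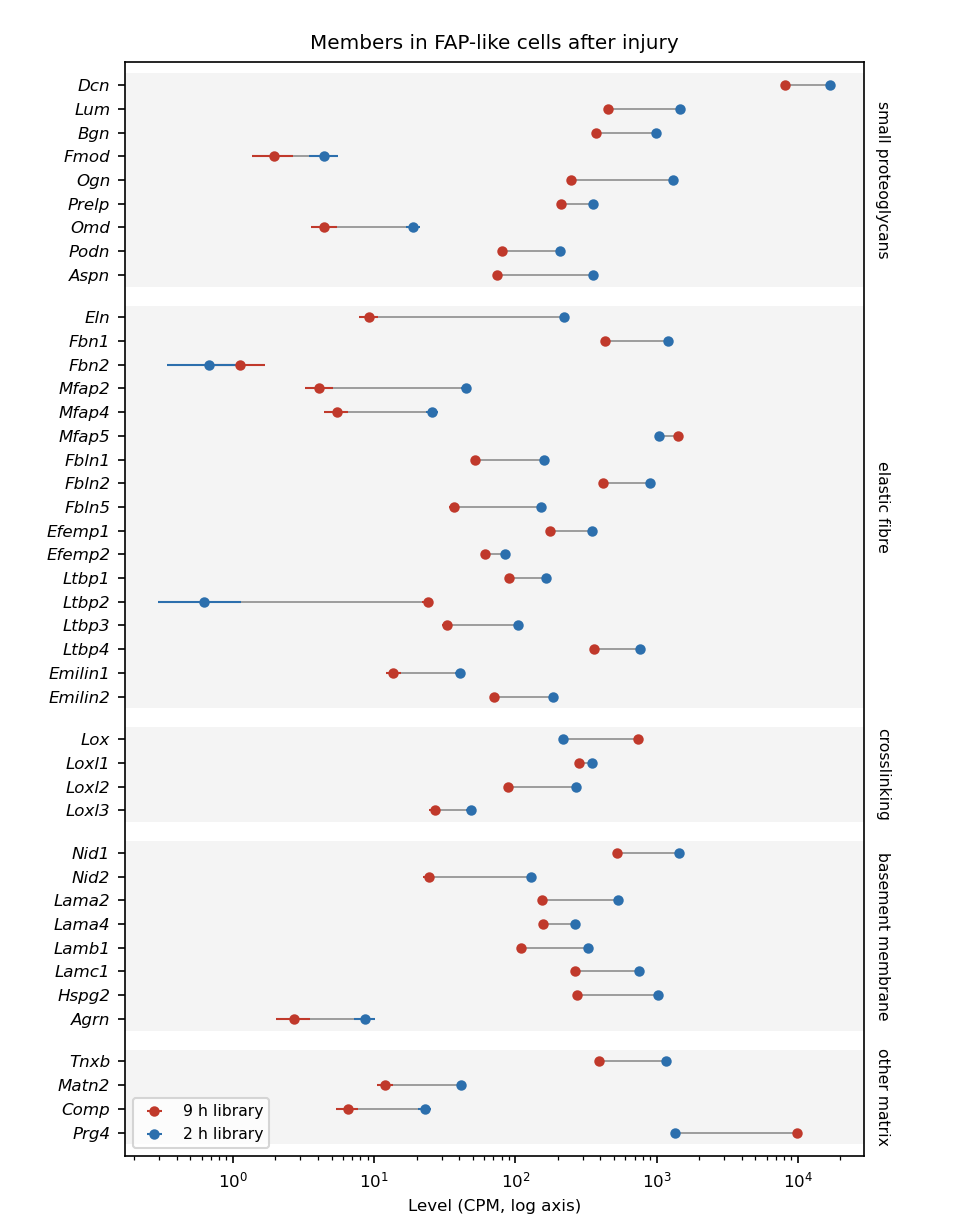
Level of each gene in FAP-like cells of the 9 h and 2 h libraries (CPM, log axis), by gene group; points are levels of 1 library and bars are exact 95% Poisson intervals. Most 9 h points (red) lie left of the 2 h points (blue), and those of Prg4, Lox, Ltbp2, Mfap5 and the sparse Fbn2 lie to the right.

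Among the small proteoglycans, 7 of 9 were lower at 9 h, with a median log2 ratio of -1.27 and a range of -2.36 to -0.27. Dcn, decorin, the most abundant member at 2 h, was at 8056 CPM at 9 h and 16932 CPM at 2 h, 2.10-fold lower at 9 h (interval 2.09 to 2.11). Lum, lumican, a keratan sulphate proteoglycan of fibril surfaces, was at 452 CPM at 9 h and 1467 CPM at 2 h, 3.25-fold lower (3.17 to 3.33). Bgn, biglycan, the close relative of decorin, was at 374 CPM at 9 h and 985 CPM at 2 h, 2.63-fold lower (2.56 to 2.71). These fibril-binding proteoglycans were all lower at 9 h, Dcn by the least. Ogn, osteoglycin or mimecan, was at 246 CPM at 9 h and 1307 CPM at 2 h, 5.31-fold lower (5.15 to 5.48), and Aspn, asporin, at 74.7 CPM and 356 CPM, 4.76-fold lower (4.49 to 5.04). Podn, podocan, was at 80.0 CPM at 9 h and 207 CPM at 2 h, 2.59-fold lower (2.43 to 2.75). Prelp, which links basement membranes to collagen, differed less, at 210 CPM at 9 h and 357 CPM at 2 h, 1.70-fold lower (1.63 to 1.77). Fmod (fibromodulin) and Omd (osteomodulin) were both under 20 CPM in these cells. Fmod was 2.27-fold lower (1.51 to 3.46), short of the rule once 10 CPM is added.

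Aspn, Omd and Ogn lie next to one another on the plus strand of chromosome 13, at distances of 14.9 and 15.2 kb in the mouse annotation, with Ecm2 as the next small proteoglycan gene upstream. Each of them was lower at 9 h in FAP-like cells. Their promoters are shown because they are neighbours that differed in the same direction, and that of Ltbp2 because its ratio of CPM, without the added 10 CPM, was the largest in the other direction, though it rests on 10 UMIs at 2 h. They are RefSeq windows of the GRCm38.p6 build, each 250 bases before to 50 bases after the gene's start, at chr13:49544193-49544492 (Aspn, plus strand), chr13:49582212-49582511 (Omd, plus), chr13:49607765-49608064 (Ogn, plus) and chr12:84876442-84876741 (Ltbp2, minus). Capitals mark matches, on either strand, to the TATA box TATAAA, the GC box GGGCGG or the CCAAT box CCAAT.
Aspn: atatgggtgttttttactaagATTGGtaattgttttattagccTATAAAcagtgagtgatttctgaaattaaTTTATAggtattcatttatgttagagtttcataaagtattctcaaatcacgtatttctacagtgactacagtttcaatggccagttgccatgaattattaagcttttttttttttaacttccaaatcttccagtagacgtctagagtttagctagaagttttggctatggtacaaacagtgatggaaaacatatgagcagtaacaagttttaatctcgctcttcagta
Omd: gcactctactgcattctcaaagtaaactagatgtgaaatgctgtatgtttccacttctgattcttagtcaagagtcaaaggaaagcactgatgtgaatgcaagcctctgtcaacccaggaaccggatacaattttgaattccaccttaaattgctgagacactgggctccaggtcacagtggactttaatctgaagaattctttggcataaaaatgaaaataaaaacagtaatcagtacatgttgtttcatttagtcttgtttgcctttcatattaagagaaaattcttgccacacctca
Ogn: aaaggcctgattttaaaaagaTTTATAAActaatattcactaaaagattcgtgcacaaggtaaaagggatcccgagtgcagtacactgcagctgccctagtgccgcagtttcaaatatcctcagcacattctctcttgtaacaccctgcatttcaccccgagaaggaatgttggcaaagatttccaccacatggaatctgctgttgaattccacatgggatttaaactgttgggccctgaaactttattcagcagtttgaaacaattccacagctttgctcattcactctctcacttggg
Ltbp2: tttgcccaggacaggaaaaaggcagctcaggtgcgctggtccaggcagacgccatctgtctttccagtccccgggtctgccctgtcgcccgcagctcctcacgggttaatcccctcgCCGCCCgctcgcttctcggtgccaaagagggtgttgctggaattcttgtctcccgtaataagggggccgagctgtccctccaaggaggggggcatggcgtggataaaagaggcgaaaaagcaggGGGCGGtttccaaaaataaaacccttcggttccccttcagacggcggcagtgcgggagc
The GC content was 31.0% for Aspn, 37.7% for Omd, 42.3% for Ogn and 61.0% for Ltbp2. TATAAA occurred in Aspn and Ogn, where the Ogn matches overlap each other, and in 13.6% of all 32851 RefSeq promoter windows. GGGCGG occurred in Ltbp2 and in 35.7% of all windows, and CCAAT in Aspn and in 37.4%. TGANTCA, the AP-1 site, was found in none of the 4 windows and in 7.81% of all windows, and Omd held none of the 4 motifs. Windows were found for 26 of the 42 genes. Of their 37 windows, 22 (59.5%) held GGGCGG, 10 (27%) CCAAT, 3 (8.11%) TGANTCA and 2 (5.41%) TATAAA. A match describes these letters only.

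Of the elastic-fibre genes, 11 of the 16 measured were lower at 9 h and 1 was higher, with a median log2 ratio of -1.16 and a range of -3.59 to 1.67. Eln, the elastin core protein, had the log2 ratio furthest from 0 (-3.59 with 10 CPM added). It was at 9.14 CPM at 9 h (179 UMIs) and 220 CPM at 2 h (3554 UMIs), 24.1-fold lower (20.7 to 28.2). An Eln UMI was found in 0.991% of FAP-like cells at 9 h and in 14.1% at 2 h once each cell was thinned to 1000 UMIs, and in 4.76% and 51.2% without thinning. In neutrophil-like cells, which are not a source of elastin, the thinned shares were 0.126% at 9 h and 0.195% at 2 h. Thinning left out 52 of the 9 h and 24 of the 2 h FAP-like cells.

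The microfibril genes did not share a direction. Fbn1, fibrillin-1, which forms the scaffold, was at 431 CPM at 9 h and 1202 CPM at 2 h, 2.79-fold lower (2.72 to 2.86). Mfap2, a microfibril-associated glycoprotein, was at 4.09 CPM at 9 h and 44.5 CPM at 2 h, 10.9-fold lower (8.64 to 13.9). Its relative Mfap5 was at 1423 CPM at 9 h and 1048 CPM at 2 h, 1.36-fold higher (1.33 to 1.38). The 2 relatives differed in opposite directions, and Mfap5 did not reach the 2-fold rule.

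The fibulins, which bind microfibrils and elastin, were at lower levels at 9 h, and 3 of the 5 passed the 2-fold rule. Fbln1 was at 52.2 CPM at 9 h and 160 CPM at 2 h, 3.06-fold lower (2.84 to 3.29), and Fbln5, needed for elastic fibre assembly in mice, at 36.7 CPM and 152 CPM, 4.13-fold lower (3.80 to 4.50). Fbln2 was at 419 CPM at 9 h and 905 CPM at 2 h, 2.16-fold lower (2.10 to 2.22). Efemp1, fibulin-3, was at 176 CPM at 9 h and 351 CPM at 2 h, 1.99-fold lower (1.91 to 2.08), short of the rule once 10 CPM is added to each level. Efemp2, fibulin-4, lay at 60.7 CPM at 9 h and 84.8 CPM at 2 h. Emilin2, of the elastin microfibril interfacers, was at 70.9 CPM at 9 h and 184 CPM at 2 h, 2.59-fold lower (2.43 to 2.77).

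The latent TGF-beta binding proteins, which anchor latent growth factor in the matrix, split by member. Ltbp4 was at 361 CPM at 9 h and 761 CPM at 2 h, 2.11-fold lower (2.05 to 2.17). Ltbp3 was at 32.9 CPM at 9 h and 104 CPM at 2 h, 3.17-fold lower (2.89 to 3.47), and Ltbp1 at 89.5 CPM and 165 CPM, 1.85-fold lower (1.74 to 1.96). Ltbp2 was the exception, at 23.9 CPM at 9 h (468 UMIs) against 0.620 CPM at 2 h (10 UMIs), 38.6-fold higher (20.8 to 80.9). With 10 CPM added its log2 ratio was 1.67, below the 2.85 of Prg4 and the 1.72 of Lox. After thinning, 1.72% of FAP-like cells at 9 h and 0.0503% at 2 h had an Ltbp2 UMI, so few FAP-like cells had a UMI of it at this depth at either time.

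The crosslinking enzymes did not share a direction, with a median log2 ratio of -0.48 over 4 genes. Lox, lysyl oxidase, was at 740 CPM at 9 h and 218 CPM at 2 h, 3.40-fold higher (3.28 to 3.53), and 39.9% of thinned FAP-like cells at 9 h had a UMI of it, against 14.0% at 2 h. Loxl2, a relative known to act on basement-membrane collagen, was at 88.7 CPM at 9 h and 268 CPM at 2 h, 3.02-fold lower (2.85 to 3.19). Loxl1, tied to elastin crosslinking, was at 283 CPM at 9 h and 348 CPM at 2 h, 1.23-fold lower (1.19 to 1.28), and Loxl3 was the low member, under 50 CPM. Lox and Loxl2 were thus on opposite sides, while Loxl1 differed little.

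The basement-membrane genes had a median log2 ratio of -1.48, with 6 of 8 lower at 9 h. Hspg2, perlecan, the large heparan sulphate proteoglycan of the sheet, was at 275 CPM at 9 h and 1027 CPM at 2 h, 3.73-fold lower (3.62 to 3.85). Nid1 and Nid2, the nidogens that join laminin to collagen IV, were at 527 and 24.4 CPM at 9 h and at 1447 and 128 CPM at 2 h, 2.74-fold (2.68 to 2.81) and 5.26-fold lower (4.76 to 5.82). Lama2, the alpha chain of the muscle-fibre laminin, was at 154 CPM at 9 h and 537 CPM at 2 h, 3.49-fold lower (3.34 to 3.64). Its partner chains showed values of the same size: Lamb1 was at 109 CPM at 9 h and 325 CPM at 2 h, 2.99-fold lower (2.84 to 3.14), and Lamc1 at 263 CPM and 745 CPM, 2.84-fold lower (2.74 to 2.93). Lama4, the alpha chain of vessel and peripheral laminins, was at 156 CPM at 9 h and 266 CPM at 2 h, 1.70-fold lower (1.63 to 1.78). Agrn, agrin, was under 9 CPM at both times, 3.18-fold lower at 9 h (2.30 to 4.45) and short of the rule once 10 CPM is added.

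Among the other matrix genes, Prg4, lubricin, the surface-lubricating proteoglycan of joints and tendon sheaths, was at 9864 CPM at 9 h and 1359 CPM at 2 h, 7.26-fold higher (7.16 to 7.36). It was the most abundant member at 9 h. After thinning, 66.4% of FAP-like cells at 9 h and 34.0% at 2 h had a UMI of it, and the 10% of cells with most Prg4 held 48.4% of its UMIs at 9 h and 63.2% at 2 h. Tnxb, tenascin-X, a collagen-spacing glycoprotein, was at 391 CPM at 9 h and 1161 CPM at 2 h, 2.97-fold lower (2.89 to 3.05). Matn2, a matrilin adaptor protein, and Comp were both under 50 CPM. Matn2 was 3.47-fold lower (2.99 to 4.04) and passed the rule. Comp was 3.51-fold lower (2.86 to 4.33), short of the rule once 10 CPM is added to each level.

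Levels also differed between the FAP-like clusters of 1 library. At 9 h Dcn was at 6511 CPM in the cluster led by Cxcl5 and Ccl2, at 14146 CPM in the Saa1-led cluster and at 6331 CPM in the cluster led by Krtdap, which has Pi16 among its 10 leading genes, and at 2 h it was at 19444 CPM in the Col15a1-led cluster and 11236 CPM in the Sema3c-led cluster, which has Pi16 and Dpp4. The Saa1-led cluster was thus the 9 h cluster with the highest Dcn, above the 2 h Sema3c-led cluster. In the same order Eln was at 5.47, 15 and 19.4 CPM at 9 h and at 267 and 113 CPM at 2 h, so every 9 h cluster lay below both 2 h clusters. Prg4 was at 10110, 12657 and 4141 CPM at 9 h and at 1579 and 856 CPM at 2 h, and every 9 h cluster lay above both 2 h clusters. Hspg2, at 233, 482 and 144 CPM at 9 h and at 1279 and 456 CPM at 2 h, overlapped between the times.

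The 12 genes under 100 CPM in each library of FAP-like cells ranged from 0.620 to 84.8 CPM. Ltbp2 was the only one of them that was higher by the rule, and Mfap2 was the furthest below, at 10.9-fold lower.

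**Figure D3:**
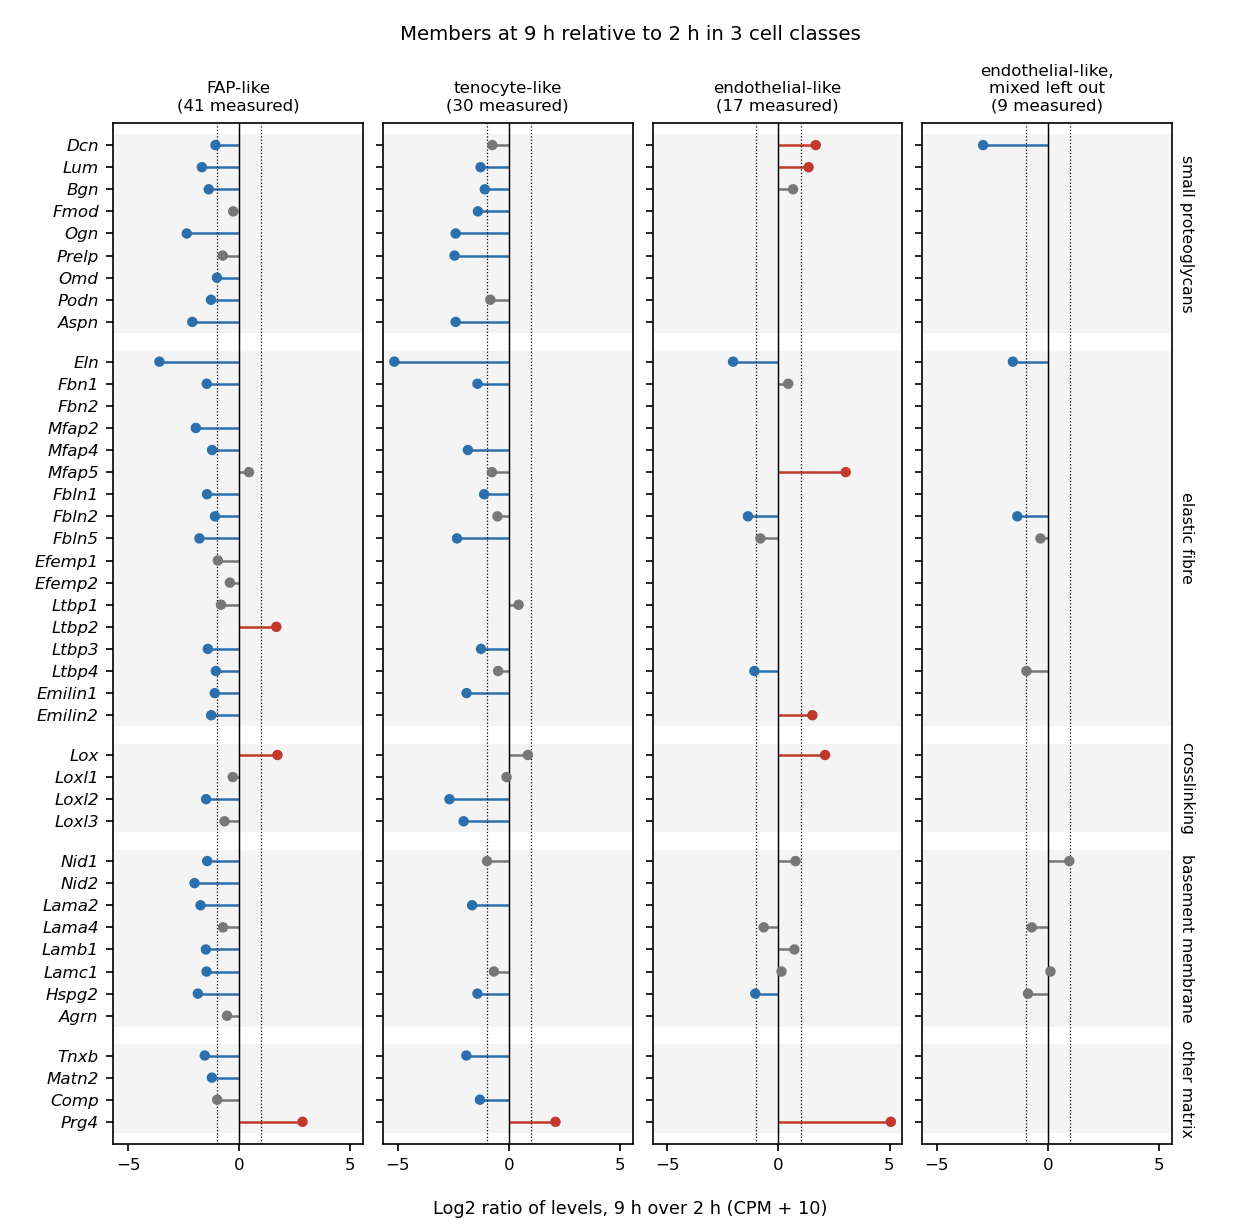
log2 ratio (9 h over 2 h, CPM plus 10) of each measured gene in FAP-like, tenocyte-like and endothelial-like cells, and in endothelial-like cells without the mixed cells, by gene group; dotted lines mark -1 and 1, and blue, red and grey mark genes lower, higher and between. In FAP-like cells 27 genes lie at or left of -1 and Prg4, Lox and Ltbp2 right of 1, and the 6 red genes of the endothelial-like panel are not red without the mixed cells.

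In tenocyte-like cells, 19 of the 30 measured genes were lower at 9 h, where 22.2% of the 1781 measured genes were lower, and Prg4 was the 1 that was higher, where 15.1% were. These cells are few, and the intervals rest on UMI counts, so they do not show the spread between cells. The tenocyte markers, which hold no member, summed to 14587 CPM at 9 h and 16338 CPM at 2 h in them. Most of that sum was Thbs4, at 13710 CPM at 9 h and 12230 CPM at 2 h, while 5 of the 6 measured markers (Tnmd, Scx, Kera, Cilp2 and Col11a1) were themselves at least 2-fold lower at 9 h. The summed neutrophil markers were at 2279 CPM at 9 h and 818 CPM at 2 h. The part of these marker shifts in the tenocyte-like results was not tested.

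Fmod, fibromodulin, was the highest small proteoglycan after Dcn in tenocyte-like cells, at 3434 CPM at 9 h and 9005 CPM at 2 h, 2.62-fold lower (2.48 to 2.77). Comp, cartilage oligomeric matrix protein, was at 670 CPM at 9 h and 1658 CPM at 2 h, 2.48-fold lower (2.19 to 2.81), and Mfap4 at 322 CPM and 1177 CPM, 3.66-fold lower (3.07 to 4.38). Fmod, Comp and Mfap4 are also among the genes that lead this cluster, and are not counted here as a result about its identity. Ogn, Prelp and Aspn were at 693, 400 and 246 CPM at 9 h and at 3687, 2206 and 1331 CPM at 2 h, and their fold differences were 5.32, 5.52 and 5.41.

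Eln in tenocyte-like cells was at 6.48 CPM at 9 h, on 3 UMIs, and at 577 CPM at 2 h, on 464 UMIs. The ratio is 89.0-fold lower with an interval of 30.3 to 433, which is wide because of the 3 UMIs. Lox was already high in these cells, at 8698 CPM at 9 h and 4798 CPM at 2 h, 1.81-fold higher (1.73 to 1.90), short of the 2-fold rule. Prg4 was at 13293 CPM at 9 h and 3087 CPM at 2 h, 4.31-fold higher (4.11 to 4.51).

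In endothelial-like cells 4 of 17 measured genes were lower at 9 h, where 8.05% of all 3937 measured genes were lower, and 6 were higher, where 7.95% were. The 4 were Eln, Fbln2, Ltbp4 and Hspg2, and the 6 were Prg4, Mfap5, Dcn, Lum, Emilin2 and Lox. Dcn was at 1032 CPM at 9 h and 315 CPM at 2 h, and the level that FAP-like RNA would bring with that much Dcn was 1263 CPM at 9 h and 25.3 CPM at 2 h for Prg4, which was found at 1370 CPM and 31.3 CPM. For Mfap5 it was 182 CPM at 9 h and 19.5 CPM at 2 h, against 140 CPM and 8.35 CPM found. For Lox it was 94.8 CPM at 9 h and 4.05 CPM at 2 h, against 114 CPM and 18.8 CPM found. Lum was found at 61.2 CPM at 9 h and 17.7 CPM at 2 h, against a level of 57.9 CPM and 27.3 CPM. Emilin2 was above such a level at both times, found at 82.4 CPM and 21.9 CPM against 9.08 CPM and 3.42 CPM. The summed FAP markers were at 1765 CPM at 9 h and 970 CPM at 2 h. Neutrophil markers summed to 12764 CPM at 9 h and 6408 CPM at 2 h, and 6 of the 10 measured were higher by the rule. Erythroid markers summed to 1924 CPM at 9 h and 1359 CPM at 2 h. The part of FAP-like, neutrophil or erythroid RNA in these 6 differences was not tested. Of these cells, 199 at 9 h and 14 at 2 h fell in an unnamed cluster at a finer clustering, and these mixed cells had Dcn at 2298 CPM at 9 h and 1022 CPM at 2 h, and S100a8, a neutrophil gene, at 10559 CPM at 9 h and 5543 CPM at 2 h. With the mixed cells left out, an alternative chosen after seeing the data, 335 cells remained at 9 h and 249 at 2 h. Then 0 members were higher (5.15% of 2988 measured genes were) and 3 of 9 were lower (7.80% of all were), namely Dcn, Eln and Fbln2. Dcn was then on the other side, at 29.1 CPM at 9 h and 287 CPM at 2 h, and the summed FAP markers at 125 CPM and 884 CPM. Neutrophil markers then summed to 4284 CPM at 9 h and 6288 CPM at 2 h, and erythroid markers to 263 CPM and 20.6 CPM. Lymphatic endothelial markers summed to 235 CPM at 9 h and 347 CPM at 2 h with the mixed cells, and to 88.4 CPM and 93.4 CPM without. At 2 h Ccl21a, Mmrn1 and Reln were at 178, 37.6 and 20.9 CPM with them and 1.09, 1.09 and 0 CPM without. Flt4 differed little, at 85.6 CPM and 80.3 CPM. The cells left out thus also held most of the RNA of some lymphatic endothelial markers.

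Several members were above the level that FAP-like RNA would bring to all endothelial-like cells, for example Eln, found at 38.1 CPM at 9 h and 188 CPM at 2 h where that level was 1.17 CPM and 4.10 CPM. Without the mixed cells Eln was at 58.2 CPM at 9 h and 193 CPM at 2 h, 3.32-fold lower (2.43 to 4.62), and Fbln2 at 176 CPM and 472 CPM, 2.69-fold lower (2.24 to 3.25). Ltbp4 was at 271 CPM at 9 h and 542 CPM at 2 h, 2.00-fold lower (1.71 to 2.34), and Hspg2 at 261 CPM and 496 CPM, 1.90-fold lower (1.62 to 2.24). With 10 CPM added their log2 ratios were -0.97 and -0.90, so both fell short of the rule here. Of the 9 measured members Nid1 and Lamc1 had higher levels at 9 h. Nid1, a nidogen, was at 370 CPM at 9 h and 186 CPM at 2 h, 1.99-fold higher (1.65 to 2.41), short of the 2-fold rule. Lamc1 was at 134 CPM at 9 h and 124 CPM at 2 h, Lama4 at 110 CPM and 188 CPM, and Fbln5 at 191 CPM and 245 CPM.

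FAP-like cells were also divided by Pi16, a marker of a fibroblast subset, using the clusters with Pi16 or Dpp4 among their 10 leading genes, called Pi16-marked. The first leading genes were Krtdap, Dmkn and Sbsn in the 9 h cluster, and Sema3c, Efhd1 and Smpd3 in the 2 h cluster. The Pi16-marked clusters held 245 cells at 9 h and 586 at 2 h, and the other FAP-like clusters 2128 at 9 h and 1426 at 2 h. The levels in these subsets are a description and were not tested. In Pi16-marked cells 18 of 41 measured genes were lower and 2 higher at 9 h, where 5.99% and 6.06% of all genes were. In the other FAP-like cells 26 were lower and 3 higher, where 9.90% and 8.28% were. While 17 members were lower in both subsets, the share of all genes lower in both was not counted, so nothing is read from that overlap.

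Within 1 time, members differed between the Pi16-marked cells and the others. Efemp1 was higher in the Pi16-marked cells, at 542 CPM against 129 CPM at 9 h and at 846 CPM against 134 CPM at 2 h. Emilin2 was at 182 CPM against 56.6 CPM at 9 h and at 394 CPM against 92.0 CPM at 2 h. Lum was lower in the Pi16-marked cells, at 111 CPM against 496 CPM at 9 h and at 329 CPM against 1965 CPM at 2 h. Bgn, Podn, Ltbp4 and Emilin1 were also at least 2-fold lower in the Pi16-marked cells at both times. The share of all genes past 2-fold between the subsets was not counted, so these members are not set apart from other genes.

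Some members depended on the subset in the time difference. Eln was at 18.8 CPM at 9 h and 114 CPM at 2 h in Pi16-marked cells, 6.05-fold lower, and at 7.90 CPM and 267 CPM in the other FAP-like cells, 33.8-fold lower. Prelp was at 360 CPM at 9 h and 302 CPM at 2 h in Pi16-marked cells, and at 191 CPM and 381 CPM in the others. The differences between the subsets were not tested.

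**Figure D4:**
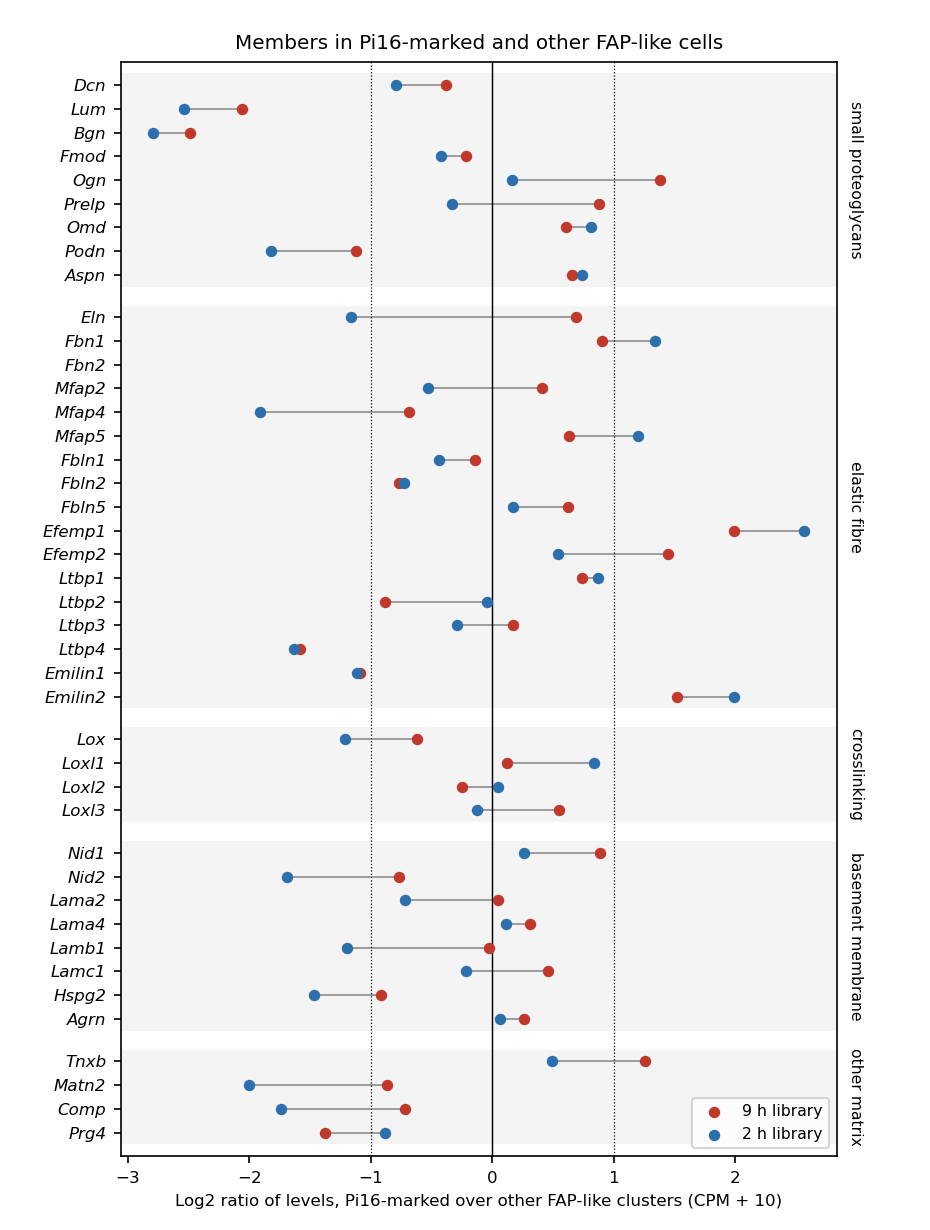
log2 ratio of levels (CPM plus 10) in Pi16-marked over other FAP-like clusters for each measured gene, with a red point for the 9 h library and a blue point for the 2 h library; dotted lines mark -1 and 1. Efemp1 and Emilin2 lie right of 1 at both times, and Lum, Bgn, Podn, Ltbp4 and Emilin1 lie left of -1.

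Among members at 100 CPM or more in an immune class, Emilin2 was the one furthest above the level that FAP-like RNA would bring. The neutrophil-like cells had 506 CPM of Emilin2 at 9 h and 424 CPM at 2 h, and held 60.4% of its UMIs at 9 h. The monocyte-like cells had 456 CPM of it at 9 h and 541 CPM at 2 h, and macrophages of the resident-like class had 141 CPM and 122 CPM. The level from FAP-like RNA in the macrophages would be 3.16 CPM at 9 h and 15.9 CPM at 2 h. Satellite-like cells, the muscle stem cells, had Lox at 318 CPM at 9 h and 68.3 CPM at 2 h. The glial-like cells, 18 at 9 h and 11 at 2 h, had Matn2 at 474 CPM and 746 CPM. That rests on 34 UMIs at 9 h and 27 UMIs at 2 h, too few to count as measured. The interval of its 9 h over 2 h ratio, 0.372 to 1.09, included 1. Dcn, which neutrophils are not known to make, was at 80.6 CPM at 9 h and 137 CPM at 2 h in neutrophil-like cells, with a UMI in 5.75% and 13.3% of thinned cells, so no expression was read from member levels in immune classes near those that FAP-like RNA would bring. Among these was Prg4 at 414 CPM at 9 h and 137 CPM at 2 h in the resident macrophage class, where FAP-like RNA would bring 440 CPM and 118 CPM. Nid1 there was at 28.0 CPM and 145 CPM, against 23.5 CPM and 125 CPM. Ogn there was at 8.47 CPM and 105 CPM, against 11 CPM and 113 CPM. Fbn1 there was near that level at 9 h, at 24.7 CPM against 19.2 CPM, and above it at 2 h, at 211 CPM against 104 CPM. Dcn in that class was at 359 CPM at 9 h and 1466 CPM at 2 h, and in the dendritic class at 644 CPM and 51.2 CPM. Prg4 in the dendritic class was at 617 CPM at 9 h and 4.52 CPM at 2 h, where FAP-like RNA would bring 788 CPM and 4.11 CPM.

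Genes of the same pathways outside the 42 were counted by the same rule in FAP-like cells, where 9.31% of all measured genes were lower and 7.40% higher. Of 9 measured other elastic-fibre genes 6 were lower at 9 h and 0 were higher, with a median log2 ratio of -1.20. Of 9 other laminin and basement-membrane genes 3 were lower and 0 were higher, with a median of -0.94, among them Sparc, a collagen-binding matricellular protein, at 1266 CPM at 9 h and 4227 CPM at 2 h. Of 2 other small leucine-rich proteoglycans Ecm2 was lower, at 52.0 CPM at 9 h and 223 CPM at 2 h. Of 8 cell-surface heparan sulphate proteoglycans 2 were lower and Sdc4 was higher, at 2221 CPM at 9 h and 941 CPM at 2 h, with a median of -0.60. Of 29 glycosaminoglycan-synthesis genes 2 were lower and 3 higher, shares near those of all genes, with a median of -0.19. The lower ones were Chst12 and Ugdh, which makes a sugar precursor of the chains and was at 780 CPM at 9 h and 3199 CPM at 2 h. The higher ones were Chst11, a chondroitin sulphotransferase, at 98.1 CPM at 9 h and 11.4 CPM at 2 h, Csgalnact1, at 149 CPM and 36.6 CPM, and B3galt6, at 29.7 CPM and 7.94 CPM. Of 4 laminin receptor genes Dag1, dystroglycan, was lower, at 37.3 CPM at 9 h and 112 CPM at 2 h.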

How the data were processed

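The submitters' processing notes name Cell Ranger 5.0.0 and the mm10 build; no source used here gives the aligner settings or annotation release. The authors deposited UMI counts per gene and cell, as whole numbers with no normalization, 1 matrix per library (36042307 UMIs at 9 h and 28635763 at 2 h), and each count is 1 molecule, so levels are compared without dividing by gene length.

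Cells with under 200 genes or 500 UMIs, or over 20% mitochondrial UMIs, were removed. The rest were clustered in Scanpy 1.11.5 (2000 variable genes without the 42 members, 30 components, 15 neighbours, Leiden resolution 1). A cluster took a class name when at least 3 markers of that class, each in at least 10% of its cells, scored 1.5 times above the next class. Scrublet called 0 and 6 doublets at 9 h and 2 h, under its working limit of 0.5%, so none was removed. 12 kept barcodes occurred in both libraries. Counts were summed per class and library and scaled to CPM. Levels have exact Poisson and ratios exact binomial 95% intervals. Log2 ratios add 10 CPM. The calculation was tested on counts simulated with counting error only, at the depth of FAP-like cells. The intervals held the true ratio for 92% to 98% of genes. The 2-fold rule was passed by 0% of genes with no true difference. With a true 2-fold lower or higher level, 0% and 2% passed, and with a 4-fold one 62% and 74%. Genes short of the rule can thus still differ. Genes were named by this rule: all 42 are accounted for, and those at 100 CPM or more in a class of at least 100 cells in each library are given values, with some others named beside a result. The members and lists were chosen with earlier results of these data known. Of the 42, 18 overlap an annotated gene on the other strand and Podn overlaps Scp2 on its own strand. Alternatives were TMM scaling (edgeR 4.0.16), a pseudocount of 1 CPM, no low-count filter, other clusterings and cell filters, cells with the top doublet or member counts left out, cells averaged equally, and thinning to 1000 UMIs. Positions and promoters come from GENCODE M21 and RefSeq tables.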

Additional observations from a re-analysis of the deposited data

Results flagged for a closer look

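Emilin2 had a log2 ratio (9 h over 2 h) of 1.53 in endothelial-like cells, where it was at 82.4 CPM at 9 h and 21.9 CPM at 2 h, of -1.26 in FAP-like cells and of -1.26 in dendritic-like cells, where it was at 53.4 CPM at 9 h and 142 CPM at 2 h. The directions are opposite between these classes, and the difference was not tested. Without the mixed endothelial cells it was at 24.6 CPM at 9 h and 21.7 CPM at 2 h.

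Prg4 had a log2 ratio of 2.85 in FAP-like cells and of 2.10 in tenocyte-like cells, and of -1.72 in monocyte-like cells, where it was at 48.0 CPM at 9 h and 181 CPM at 2 h. The difference was not tested. At the Dcn level of the monocyte-like cells, FAP-like RNA would bring 42.2 CPM at 9 h and 30.4 CPM at 2 h.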

How the results depend on the processing

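All 30 genes past the 2-fold rule in FAP-like cells kept their sign under the 11 other settings chosen at the start. By the log2 ratio alone, 25 stayed past it, and Dcn, Omd, Fbln2, Ltbp4 and Emilin1 did not in some. Counted among measured genes, 23 were lower and 2 higher after thinning, where Ltbp2 kept a log2 ratio of 1.5. With TMM scaling 23 were lower and 3 higher. Of the counts and group medians, none reversed and 97 recomputed values stayed within the counting interval of a median or within 1.5 times of a count. The small-proteoglycan median was -1.14 with TMM scaling, -1.39 with a pseudocount of 1 CPM, -1.46 after thinning and -1.52 without the Saa1-led cluster. The elastic-fibre median was -1.42 with a pseudocount of 1 CPM. The crosslinking median was -0.35 with TMM and -0.56 with a pseudocount of 1 CPM. The basement-membrane median was -1.35 with TMM and -1.60 without the Saa1-led cluster. TMM moved the median of all genes by 0.14 in FAP-like cells. In endothelial-like cells, 9 members were lower with a mitochondrial limit of 10%. Higher members there numbered 0 at resolution 2, 2 with the mitochondrial limit of 10%, 2 without the top doublet scores, 1 after thinning and 0 without the mixed cells. Single genes in endothelial-like cells did change sign without the mixed cells: the log2 ratio of Dcn was -2.92 there and 1.68 with them, and those of Mfap5 and Lox, no longer measured, were -0.16 and -0.09. Leaving out the mixed cells or the Saa1-led cluster were alternatives chosen after seeing the data, and for all of these the cause was not tested. No paired analysis was possible because there was 1 library per time. With 1 library per time, mice, batch and time cannot be told apart, and low genes are limited by counting.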
